A study of Drosophila melanogaster with 18 samples.

Results

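Oxidative phosphorylation genes encode the 5 protein complexes of the mitochondrial inner membrane that carry electrons to oxygen and make ATP. They were picked from the annotation of an Affymetrix Drosophila Genome Array by symbol alone. The symbols taken begin with ND-, Sdh and a letter from A to D, UQCR, COX and a digit, or ATPsyn, together with RFeSP and Cyt-c1. Of 13966 probe sets, 12443 carried exactly 1 gene symbol, of 10844 different symbols. Among them 70 probe sets matched, and they read 68 genes, since ATPsynC and ND-MNLL have 2 probe sets each. The brightest probe set stood for its gene, and 4 further matching probe sets were left out because they carry a second symbol. The 68 genes comprised 26 subunit genes of complex I, 3 of complex II, 5 of complex III, 7 of complex IV and 10 of complex V. The remaining 17 carry the name of a subunit gene followed by L and are called duplicates here. For 12 of these the gene they are named after was also measured, and the other 5 (ND-24L, SdhAL, COX6AL2, ATPsynepsilonL and ATPsynGL) were placed in the class by name after the member list was seen.

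Each array was hybridised with RNA of 10 whole Drosophila melanogaster animals, collected at -4 h (larvae late in their last instar), at 0 h (pupariation, when the larva becomes an immobile white prepupa) or at 4 h (prepupae). The strain w1118 served as control. The EcRi strain bears the transgene hs-EcRi-11, whose heat-inducible promoter drives double-stranded RNA of the region shared by the transcripts of EcR, the ecdysone receptor gene. Its larvae were kept at 37 °C for 1 h at 24 h and again at 18 h before pupariation. Whether controls were warmed in the same way is not stated in the labels or methods, so transgene, strain background and heat cannot be told apart in any difference between EcRi and control. Each of the 6 groups held 3 arrays from independent collections, 18 in all.

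Complex I (NADH dehydrogenase) and complex II (succinate dehydrogenase) pass electrons to ubiquinone, complex III passes them to cytochrome c, complex IV (cytochrome c oxidase) passes them to oxygen, and complex V (ATP synthase) uses the resulting proton gradient to make ATP. In flies the nuclear subunit genes are expressed in nearly every tissue and tend to share their level with the mitochondrial content of the tissue, whereas many of the duplicated copies are known from the testis. A few subunits of complexes I, III, IV and V are encoded by the mitochondrial genome, and none of those was among the measured members. Pulses of the steroid ecdysone, acting through EcR, drive the larva into the prepupa, during which larval tissues are remodelled or lost.

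The values were probe set intensities made with dChip. The expression values of members ranged from near the background to 2858, and the small number of arrays limits their precision. A pair of arrays stood apart from all the others: control -4 h replicate 1 and EcRi 0 h replicate 1 correlated with their nearest array at 0.94 and 0.93, against 0.97 to 1.00 for the rest (Pearson's r of log2 values over all probe sets). EcR, the targeted gene, has 2 probe sets, and neither was at least 1.5-fold lower in EcRi at any time. The brighter one differed by 0.08, -0.00 and 0.09 on the log2 scale at -4, 0 and 4 h, and the dimmer by -0.51, 0.39 and 0.36 (limma adjusted p = 0.0669, 0.0976 and 0.0858). The labels and methods do not say whether these probes also read RNA of the transgene, so EcR does not check the labels. The paper gives other evidence of the knockdown. It reports that every EcRi animal arrested as an elongated prepupa, and cites highly reduced EcR protein. On its RNA blots the ecdysone-induced gene E74A was not expressed in EcRi animals.

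In control animals no subunit gene was called over time. From 0 to 4 h the fitted log2 changes of the 51 subunit genes lay between -0.25 (ND-MWFE, a small membrane subunit of complex I) and 0.30 (COX7C), with a median of -0.03. None of the 68 members was called, where called means an adjusted p under 0.1 and a change of at least 1.5-fold (limma, Benjamini-Hochberg adjustment over all probe sets). Of all probe sets 4.60% were called over that interval. From -4 to 0 h the median of the subunits was 0.11 and none was called, against 3.11% of all probe sets. The changes named by size there were 0.62 for ATPsynbeta, 0.41 for ND-B12, 0.34 for COX5A, 0.23 for Cyt-c1 and 0.17 for SdhD, with adjusted p of 0.404 to 0.746. Only the duplicate ATPsynCF6L was called in controls, and it rose from -4 to 0 h. At an unadjusted p under 0.05, 4 members passed from -4 to 0 h (15.0% of all probe sets) and 2 from 0 to 4 h (12.1%).

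In EcRi animals no subunit gene was called at -4 h, and most subunit genes were below control at 4 h, by widely different amounts on the 3 arrays. At -4 h no subunit gene was called and the median difference between EcRi and control was 0.08 on the log2 scale. The largest differences of each complex were 0.45 (ND-B12), 0.31 (SdhB), 0.14 (UQCR-6.4), -0.34 (COX7C) and 0.34 (ATPsynbeta), with adjusted p of 0.38 to 0.918. The 1 member called lower was the duplicate ATPsynCF6L, against 1.17% of all probe sets called lower, and none was called higher (1.78%). At 0 h the median of the 51 subunits was -0.27 and 42 of them were below 0 (43.1% of all probe sets). One subunit, ATPsyndelta, was called higher (3.01% of all probe sets) and 1 member, again ATPsynCF6L, was called lower (4.68% of all probe sets). At 4 h 10 members were called lower and 0 higher, against 9.08% of all probe sets called lower and 4.33% called higher. The called members were ND-15, ND-B17, Cyt-c1, UQCR-6.4, UQCR-Q, COX7C, ATPsynbeta and ATPsynC among the subunits, and ATPsynCF6L and COX5BL among the duplicates.

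The share of calls at 4 h has to be read beside the brightness of these genes. The 10 called members are 14.7% of 68. Of the 68 members 55 had a mean intensity above 300, and of all 5728 probe sets above that level 14.2% were called lower and 7.26% higher. The share of all 68 called lower was therefore close to that of bright probe sets, while no member was called higher. The sets are not alike, since the called COX7C, COX5BL and ATPsynbeta had means of 133, 240 and 296, under that level. With the adjusted p alone and no fold limit, 26 members (38.2%) were lower and 2 higher, SdhB and the duplicate ND-B14.5AL. The same count took in 14.3% of all probe sets as lower and 9.92% as higher, and 20.7% and 13.4% of those above 300. All 3 EcRi 4 h arrays were below all 3 control 4 h arrays for 34 of the 51 subunits (66.7%), against 21.2% of all probe sets and 30.9% of those above 300. They were above all 3 for ND-MNLL, ND-B8 and SdhB (19.7% of all probe sets). Of the 51 subunits 45 had a fitted difference below 0. This held for 39.7% of all probe sets, where those at the floor on every array count as 0, for 53.0% of those above 300 and for 59.7% of those above 1000. The median of the subunits was -0.43, beside -0.14 over the 1111 probe sets with a mean above 1000 and 0.00 over all probe sets.

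**Figure D1:**
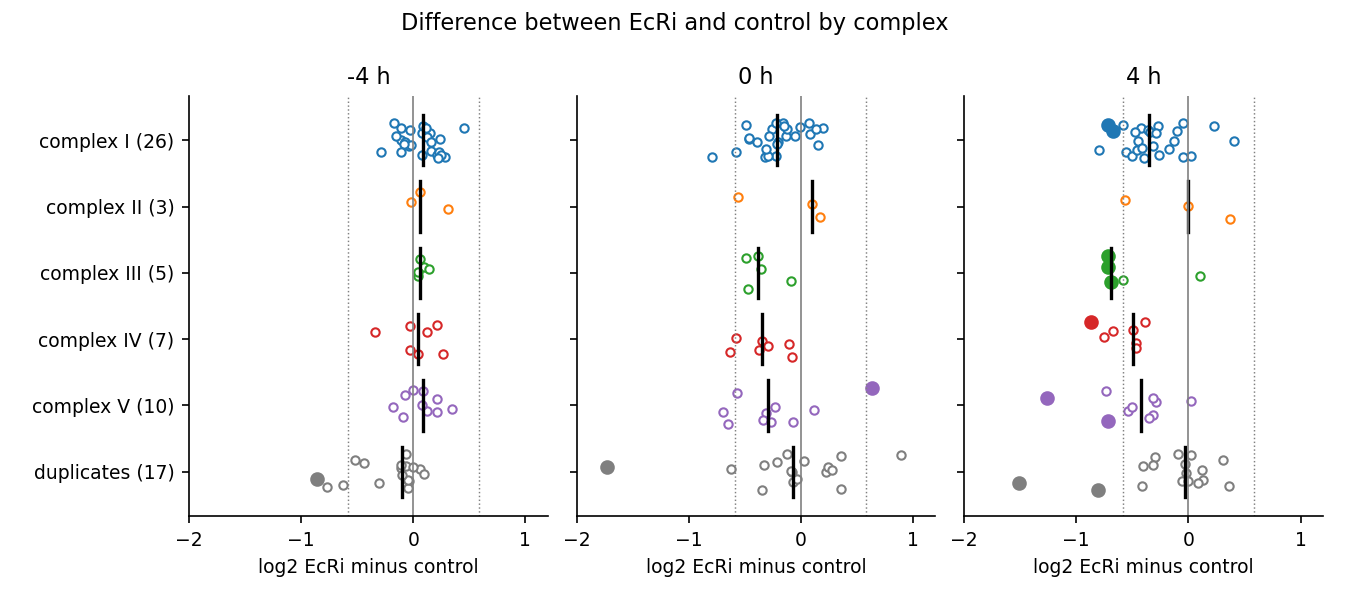
Fitted log2 difference between EcRi and control at -4, 0 and 4 h for each of the 68 members, 1 point per gene, in rows by complex with the duplicates last and the number of genes in brackets. Filled points are called, black lines are medians and dotted lines mark 1.5-fold; at 4 h the medians are -0.35, -0.01, -0.69, -0.50 and -0.43 for complexes I to V and -0.03 for the duplicates.

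Complex I was represented by 26 subunit genes, of which 2 were called lower at 4 h, 10 were lower by adjusted p alone and 15 had EcRi arrays wholly below the controls. Of these 26 genes 25 had a mean above 300, where 14.2% of probe sets were called lower, 20.7% passed the adjusted p downward and 30.9% lay wholly below. The median differences were 0.09 at -4 h, -0.22 at 0 h and -0.35 at 4 h. ND-15, an accessory subunit, read 1021, 937 and 842 on the control 4 h arrays and 425, 755 and 559 on the EcRi arrays. The groups did not overlap, and EcRi replicate 2 was the closest to the controls. The log2 difference was -0.72 ± 0.21 (SE, n = 3 arrays a group; limma adjusted p = 0.0371). ND-B17, another accessory subunit, read 449, 381 and 371 in controls and 206, 359 and 212 in EcRi (-0.67 ± 0.24, adjusted p = 0.0693), so that EcRi replicate 2 came close to the lowest control. Without EcRi 4 h replicate 1 the adjusted p was 0.167 for ND-15 and 0.252 for ND-B17, and without control 4 h replicate 1 it was 0.136 and 0.22. ND-B17 was also lost without control 4 h replicate 2 (0.128), control 4 h replicate 3 (0.108) or EcRi 4 h replicate 3 (0.215).

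By adjusted p alone a further 8 complex I genes were lower at 4 h, by 0.27 to 0.58 on the log2 scale: ND-B22, ND-19, ND-B18, ND-13A, ND-ACP, ND-39, ND-B14.7 and ND-B14. They include ND-ACP, the mitochondrial acyl carrier protein (-0.40, adjusted p = 0.0137), and ND-B14 (-0.58, 0.0122), an accessory subunit that read 532, 532 and 486 in controls and 259, 417 and 380 in EcRi. All but ND-B14.7 had their EcRi arrays wholly below the controls. Its EcRi replicate 2 read 495, above the lowest control at 479.

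ND-75, ND-51 and ND-20, core subunits that carry electrons through complex I, were not called, though ND-51 lay below the complex median of -0.35 at 4 h. Whether core and accessory subunits differed was not tested. ND-75 and ND-51, the iron-sulfur and flavin subunits that take electrons from NADH, differed by -0.05 and -0.43 at 4 h with adjusted p of 1 and 0.325. ND-20, which lies near the ubiquinone site, differed by -0.26 (adjusted p = 0.509). ND-MWFE had the largest unsigned difference of its complex at 0 h, reading 1166, 1078 and 1008 in controls and 328, 800 and 922 in EcRi. Its difference of -0.80 ± 0.34 was not called (adjusted p = 0.18) and its EcRi arrays were spread widely. ND-39, an accessory subunit, read 689, 663 and 608 in controls at 4 h and 340, 576 and 449 in EcRi. Its difference of -0.55 ± 0.16 passed the adjusted p (0.0294) but not the fold limit.

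A few complex I genes went against the rest at 4 h. ND-B8, an accessory subunit, read 192, 212 and 218 in controls and 330, 270 and 232 in EcRi, a difference of 0.41 ± 0.17 that did not pass (adjusted p = 0.12). ND-MNLL read 1276, 1331 and 1260 in controls and 1383, 1618 and 1541 in EcRi on its bright probe set (0.23, adjusted p = 0.352). Its other probe set, with a mean of 668 against 1460, gave -0.06 with an adjusted p of 0.924, so the probe sets of this gene had opposite signs. The brightest complex I probe set, that of the accessory subunit ND-B16.6, read 1585 to 1636 in controls and 1525 to 1737 in EcRi, overlapping at a difference of 0.02.

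Complex II had no call at any time. Its iron-sulfur subunit gene SdhB, the brightest of the complex, was higher in EcRi than in control at -4 and 4 h with no overlap of arrays. At 4 h it read 1153, 1208 and 1236 in controls and 1517, 1531 and 1606 in EcRi. The difference of 0.37 ± 0.14 passed the adjusted p (0.0869) but not the fold limit, and SdhB was the only subunit gene to do so upward at 4 h. At -4 h it read 1147, 1361 and 1159 in controls and 1665, 1503 and 1370 in EcRi (0.31 ± 0.14, adjusted p = 0.38). At 0 h EcRi replicate 1 read 980 while replicates 2 and 3 read 1594 and 1406, around control values of 1091 to 1202.

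SdhD, which encodes a membrane anchor of complex II, moved the other way. It read 802, 790 and 810 in controls at 4 h and 497, 631 and 508 in EcRi. The difference was -0.56 ± 0.22 (adjusted p = 0.0957), just short of 1.5-fold, and no EcRi array reached the control range. SdhC, the other anchor, differed by -0.01 and overlapped. The 3 genes of this complex thus lay at 0.37, -0.01 and -0.56 at 4 h.

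Complex III showed the lowest median at 4 h, -0.69 over 5 genes, and 3 of the 5 were called lower. All 5 genes had a mean above 300, and 3 had a mean above 1000. At those levels 14.2% and 22.4% of probe sets were called lower, against 9.08% of all probe sets. Whether complex III differed from other bright probe sets was not tested. UQCR-Q, a small ubiquinone-binding subunit and the brightest of the complex, read 1820, 1943 and 1755 in controls at 4 h and 889, 1472 and 1060 in EcRi. All EcRi arrays lay below all controls (-0.72 ± 0.25, adjusted p = 0.0674). UQCR-6.4, another small subunit, read 1560, 1518 and 1421 in controls and 702, 1259 and 854 in EcRi (-0.72 ± 0.27, adjusted p = 0.0867). Cyt-c1, the haem subunit that hands electrons to cytochrome c, read 1177, 1158 and 1015 in controls and 590, 810 and 692 in EcRi (-0.69 ± 0.18, adjusted p = 0.0189).

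The calls of complex III differed in how far they rested on single arrays. UQCR-6.4 was called in 6 of the 18 fits that left out 1 array and its adjusted p reached 0.315 without EcRi 4 h replicate 1. UQCR-Q was called in 13 of 18 and was lost without any of the control 4 h arrays (0.161, 0.164 and 0.116) and without EcRi 4 h replicate 1 or 3 (0.254 and 0.164). Cyt-c1 was called in 17 of 18. Without EcRi 4 h replicate 1 it kept an adjusted p of 0.0901 but fell to -0.57, under the fold limit. UQCR-14 read 986 to 1165 in controls and 506, 995 and 752 in EcRi and was not called (-0.59, adjusted p = 0.202). RFeSP, the Rieske iron-sulfur protein of the same complex, was not lower: it read 820, 807 and 786 in controls and 921, 880 and 792 in EcRi (0.10, adjusted p = 0.69).

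All 7 complex IV genes had a negative difference at 4 h, from -0.87 to -0.39, and 6 of the 7 had EcRi arrays wholly below the controls. Of these genes 5 had a mean above 1000. At that level 59.7% of probe sets had a difference below 0 and 39.3% lay wholly below, against 39.7% and 21.2% of all probe sets. Only COX7C was called. COX7C read 171, 178 and 209 in controls and 108, 105 and 79 in EcRi (-0.87 ± 0.26, adjusted p = 0.0353). It is the dimmest probe set of the complex and lay under the floor of 91.6, to which lower values were raised, on 4 of the 18 arrays. With the floor at the 40th percentile of all values its difference was -0.08 (adjusted p = 0.322), and its adjusted p was 0.107 when control 4 h replicate 3 was left out and 0.114 when EcRi 4 h replicate 3 was.

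The other complex IV genes showed smaller differences than COX7C, though not all by much. COX4, the brightest and a subunit that binds ATP in the mammalian enzyme, read 2456, 2271 and 2225 in controls at 4 h and 1248, 2112 and 1775 in EcRi. COX5B read 1959, 2077 and 1957 in controls and 1393, 1718 and 1486 in EcRi. Both passed the adjusted p and not the fold limit, at -0.47 ± 0.17 (0.0772) and -0.39 ± 0.09 (0.0112). COX5A had one of the widest spreads: 951, 841 and 856 in controls against 419, 796 and 425 in EcRi gave -0.76 ± 0.35, which was not called (adjusted p = 0.163). COX7A, named at 0 h for its difference of -0.63, read 1825 to 1958 in controls and 659, 1554 and 1784 in EcRi at that time (adjusted p = 0.233).

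Complex V had 2 calls among 10 genes at 4 h, and 9 of the 10 had EcRi arrays wholly below the controls. Of these genes 9 had a mean above 1000, where 22.4% of probe sets were called lower and 39.3% lay wholly below. ATPsynbeta, 1 of the 2 called, was the dimmest of the complex with a mean of 296, so that share does not apply to it. Of all probe sets 9.08% were called lower. Whether complex V differed from other probe sets was not tested. ATPsynbeta, the catalytic subunit, showed the largest fall of any subunit gene. It read 400, 396 and 322 in controls at 4 h and 114, 230 and 142 in EcRi. The difference was -1.26 ± 0.33, or 2.40-fold lower (adjusted p = 0.0214), and was called in 17 of 18 leave-one-out fits. Without EcRi 4 h replicate 1 the adjusted p was 0.101 at a difference of -1.04.

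ATPsynC, the subunit of the membrane rotor, read 2178, 2195 and 2155 in controls at 4 h and 970, 1738 and 1363 in EcRi (-0.72 ± 0.26, adjusted p = 0.0753). Its controls lay close together while its EcRi arrays were spread widely. The call was lost without any 1 of the control 4 h arrays (adjusted p of 0.141 to 0.18) and without EcRi 4 h replicate 1 or 3 (0.301 and 0.143). The other probe set of this gene, with a mean of 175 against 1885, read 168 ± 4.07 (SD, n = 3) in controls and 198 ± 29.8 in EcRi, a difference of 0.23 (adjusted p = 0.319). The fall of ATPsynC was thus seen on the bright probe set alone.

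ATPsyndelta, in the central stalk of the enzyme, was the one subunit gene called higher at 0 h. It read 1188, 1204 and 1281 in controls and 2766, 1735 and 1433 in EcRi. The difference was 0.64 ± 0.18 (adjusted p = 0.0433), and the highest reading came from the array that stood apart. Without EcRi 0 h replicate 1 it was 0.37 (0.0611), under the fold limit. Without control 0 h replicate 1 or 2 the adjusted p was 0.137 or 0.125. At 4 h its difference was 0.02, and it was the only complex V gene whose EcRi arrays overlapped the controls there. ATPsynD, of the peripheral stalk and the brightest of the complex, read 2381 to 2532 in controls and 1864, 2282 and 1922 in EcRi at 4 h (-0.29, adjusted p = 0.406).

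**Figure D2:**
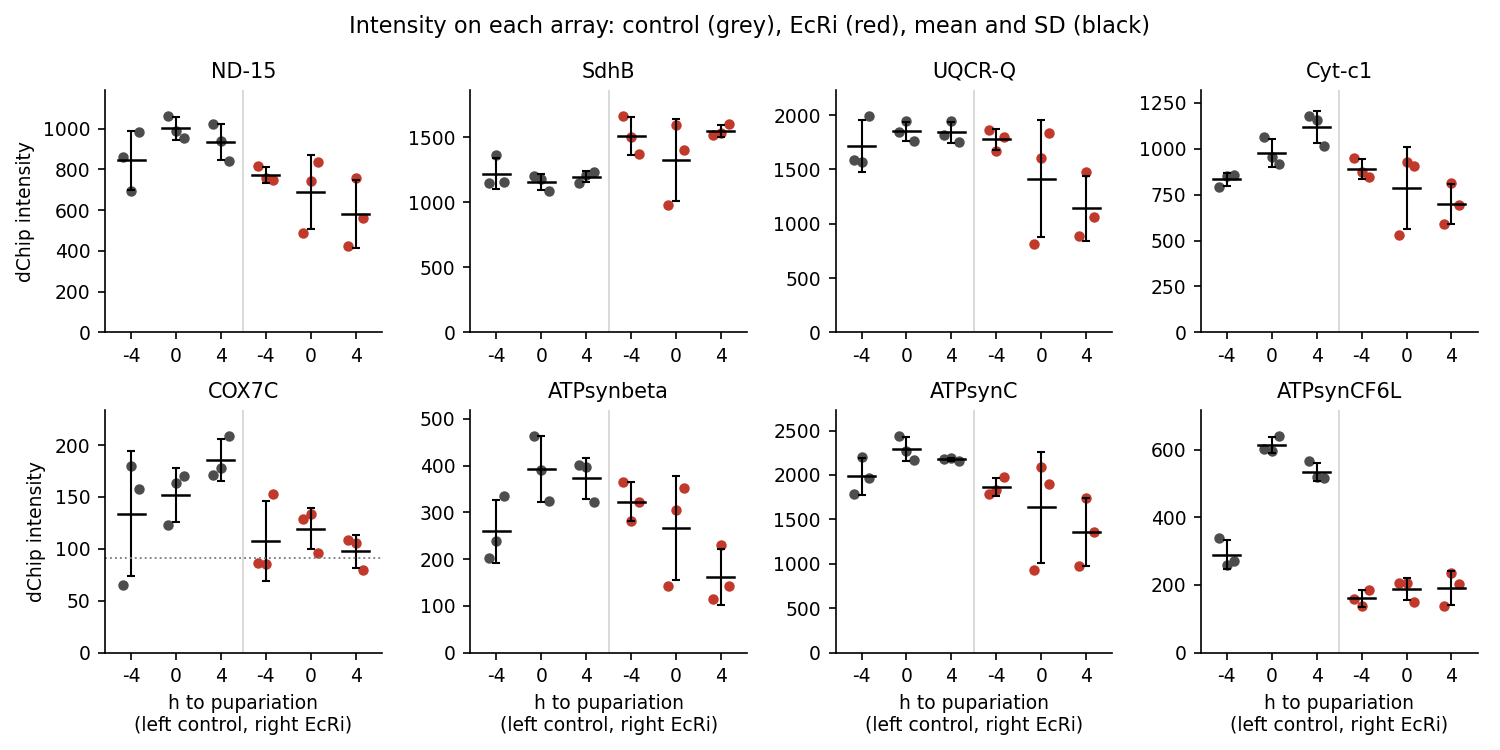
dChip intensity on each of the 18 arrays for 8 members, with controls in grey on the left of each panel and EcRi in red on the right, replicates 1 to 3 from left to right at each time, and the mean with SD (n = 3) in black. The axes start at 0 and differ between panels, and the dotted line in the COX7C panel is the floor of 91.6; ATPsynCF6L reads 516 to 566 in controls and 137 to 236 in EcRi at 4 h, while the EcRi arrays of UQCR-Q and ATPsynC at 4 h lie apart from each other.

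Among the 17 duplicates, ATPsynCF6L was called lower in EcRi at all 3 times, the one member of the 68 for which this held. It is named after coupling factor 6, a stalk subunit of complex V. In controls it read 339, 259 and 271 on the -4 h arrays, 604, 598 and 641 on the 0 h arrays, and 566, 521 and 516 on the last. In EcRi the readings were 157, 136 and 187, then 206, 207 and 151, then 137, 236 and 204. Every EcRi array was thus below every control array, whatever the time. The difference was -0.86 ± 0.19 at -4 h (adjusted p = 0.0253). It was -1.73 ± 0.19 (5.89e-05) by 0 h and -1.51 ± 0.19 (0.000145) by 4 h. The calls at 0 and 4 h held in all 18 leave-one-out fits. At -4 h the call was lost when control -4 h replicate 1 (-0.74, 0.103) was dropped, or EcRi -4 h replicate 2 (-0.75, 0.132).

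The rise of ATPsynCF6L in controls from -4 to 0 h was 1.09 ± 0.19 (adjusted p = 0.00476), beside 0.23 in EcRi over the same time (0.648). The difference between these changes, the interaction of strain and time, was -0.87 ± 0.27 and did not pass (adjusted p = 0.221). Its named counterpart ATPsynCF6 differed by 0.13, -0.34 and -0.50 between EcRi and control at -4, 0 and 4 h, none called. COX5BL was the other duplicate called at 4 h. It read 330, 325 and 361 in controls and 169, 247 and 173 in EcRi (-0.81 ± 0.23, adjusted p = 0.0319), and was lost without EcRi 4 h replicate 1 or 3 (0.127 and 0.11). COX5B differed by -0.39.

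Over all 17 duplicates, 6 differences at 4 h were above 0 and 10 below, with a median of -0.03. The EcRi arrays lay wholly below the controls for 7 of the 17 (21.2% of all probe sets), ATPsynCF6L and COX5BL included, and 4 were lower by adjusted p (14.3%). Whether the duplicates differed from the subunit genes was not tested. UQCR-14L, one of the 7, read 185 to 201 in controls and 133 to 155 in EcRi (-0.41, adjusted p = 0.229). ND-B14.5AL, the brightest duplicate, read 529, 535 and 588 in controls and 766, 664 and 694 in EcRi at 4 h (0.36, adjusted p = 0.0572), while ND-B14.5A differed by -0.17. COX4L and COX7AL, at or under the floor on 11 and 12 arrays, passed the adjusted p at 4 h with differences of -0.41 and -0.31, which the floor limits. SdhCL was under the floor on 17 arrays and SdhAL on 12, so their levels were not measured on most arrays. ATPsynGL read 1473 and 2566 on the arrays that stood apart and at most 647 on any other, so that its differences of -0.77, 0.89 and 0.13 at -4, 0 and 4 h (none called) rest on those arrays at -4 and 0 h.

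Of 20 measured testis genes, 9 were called lower in EcRi at 4 h (9.08% of all probe sets) and 0 at -4 or 0 h. The median differences of the list were -0.40 at -4 h, -0.26 at 0 h and -0.47 at 4 h. At -4 h 16 of the 20 lay below 0 (48.6% of all probe sets), and at 4 h 12 did. The times were not tested against each other. The 9 called at 4 h include Mst87F (-1.63), dj (-1.78) and betaTub85D (-1.78), which are expressed in spermatocytes or spermatids. The summed intensity of the list was 14208 to 16615 in controls and 5464 to 9082 in EcRi at 4 h, 10069 to 12633 against 6467 to 10720 at 0 h, and 10805 to 12934 against 5768 to 10630 at -4 h. The genes djl, ProtB and mia were at the floor on all arrays. The part of the testis in these differences was not tested.

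The spread between replicates differed between groups. The SD of log2 intensity over 3 arrays had a median over the 51 subunits of 0.07 to 0.08 in the control 0 h, control 4 h and EcRi -4 h groups. It was 0.18 in control -4 h, 0.23 in EcRi 4 h and 0.45 in EcRi 0 h. The wider groups are those with an array that stood apart, and EcRi 4 h.

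The size of the 4 h difference depended on the array. On EcRi 4 h replicate 2 the median of the 51 subunits was -0.14 from the control mean, on replicate 3 it was -0.44 and on replicate 1 it was -0.67. Replicate 1 was the lowest of its group for 43 subunits (52.9% of all probe sets) and replicate 2 the highest for 43. On replicate 2 the sign was nonetheless mostly the same: 35 of 51 subunits lay below every control array of that time, against 29.5% of all probe sets. On replicates 1 and 3 they numbered 45 (37.4% of all probe sets) and 42 (34.0%). The bright probe sets as a whole moved with these arrays, with medians over those above 1000 of -0.30, 0.02 and -0.15 on replicates 1, 2 and 3. The part of such array differences in the fall of the subunits was not tested.

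**Figure D3:**
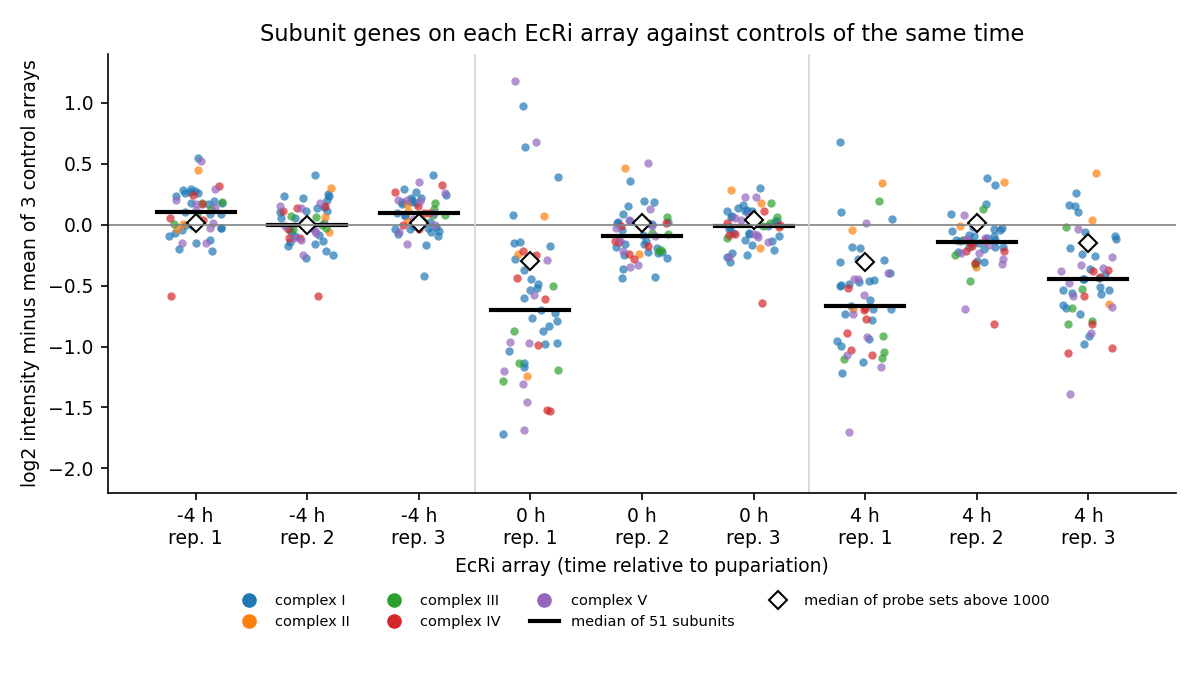
Log2 intensity of each of the 51 subunit genes on each EcRi array, minus the mean of the 3 control arrays of the same time, coloured by complex. Black lines are the medians of the subunits and open diamonds the medians of all probe sets with a mean above 1000; the lines lie at -0.70 on EcRi 0 h replicate 1 and at -0.67, -0.14 and -0.44 on the 4 h arrays.

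Scaling and the choice of arrays also moved the calls. With cyclic loess normalization 6 members were called lower and 1, SdhB, higher at 4 h (9.62% of all probe sets were then called lower). The called subunits ND-15, UQCR-6.4, UQCR-Q, Cyt-c1 and ATPsynC then kept an adjusted p of 0.000804 to 0.0465 but lay between -0.56 and -0.50, under the fold limit. In a fit of the compared arrays alone ND-15, ND-B17, UQCR-6.4 and ATPsynC were not called, with adjusted p of 0.11 to 0.152. At 4 h, 24 members were called lower without EcRi 4 h replicate 2 (13.6% of all probe sets), but 2 without replicate 1 (3.95%) and 5 without replicate 3 (5.73%). Without control 4 h replicates 1, 2 and 3 the counts were 5, 6 and 7, against 4.52%, 6.39% and 7.63% of all probe sets. The calls over the whole array thus moved in the same direction. Without both arrays that stood apart, which belong to other times but enter the shared variance, 15 members were called lower beside 12.0% of all probe sets. When EcRi 4 h replicates 1 and 3 were left out as well, 2 members were called (3.81% of all probe sets called lower), ATPsynbeta at -0.69 and ATPsynCF6L at -1.18, and 1 EcRi 4 h array then stood for its group with its spread assumed from the others.

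**Figure D4:**
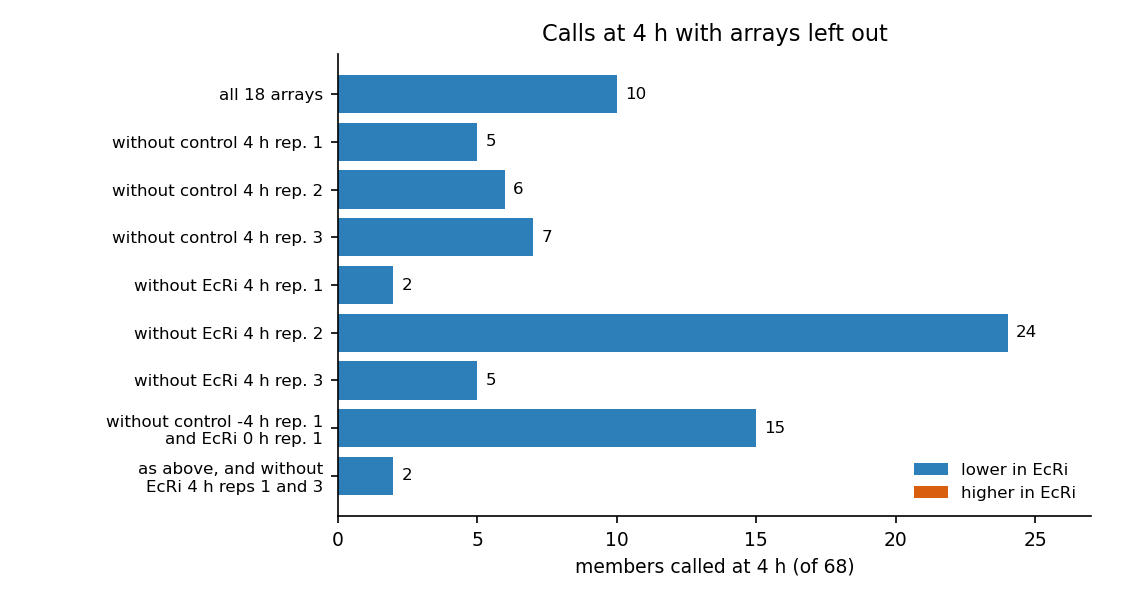
Number of the 68 members called at 4 h (adjusted p under 0.1 and at least 1.5-fold) with all 18 arrays and with the named arrays left out of the fit. All calls are of members lower in EcRi, and their number runs from 2 to 24.

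The 0 h comparison had the same dependence in a sharper form. EcRi 0 h replicate 1 was 0.70 below the control mean in the median of the 51 subunits, with 43 below every control array (41.6% of all probe sets). Replicates 2 and 3 were 0.10 and 0.01 below, with 23 and 16 subunits under every control (26.7% and 27.4% of all probe sets). Replicate 1 was the lowest of its group for 41 subunits (58.2% of all probe sets) and the lowest of all 18 arrays for 26 subunits. Yet it also gave the highest reading of ATPsyndelta (2766), ATPsynO (2858), ND-B17.2 (974) and ND-B14.5A (1504). On control -4 h replicate 1 these 4 genes had their second highest readings, at 1826, 2219, 795 and 1325. With replicate 3 left out 10 members were called at 0 h (12.5% of all probe sets), with replicate 2 left out 6 (10.9%), and with replicate 1 left out only ATPsynCF6L (6.14%).

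Within EcRi animals no change over time was called. From -4 to 0 h the median of the subunits was -0.22, the largest changes being -0.53 (ND-MWFE), -0.37 (SdhD), -0.41 (UQCR-Q), -0.51 (COX5A) and -0.50 (ATPsynF), and neither a member nor any other probe set was called (0%). From 0 to 4 h the median was -0.21 and no member was called, against 0.780% of all probe sets called lower; COX5B and ND-19 passed the adjusted p alone, at -0.34 each (0.0904 and 0.099; 1.55% of all probe sets were lower by that rule). At an unadjusted p under 0.05, 0 members passed in the first interval (4.32% of all probe sets) and 13 in the second (12.6%). Without EcRi 0 h replicate 1 the count called lower from 0 to 4 h became 6 (2.71% of all probe sets), and without both arrays that stood apart 11, beside 5.11% of all probe sets; the largest of these falls were ATPsynbeta (-1.08), COX5A (-0.83) and ND-MWFE (-0.71).

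The interaction of strain and time was called for no member in either interval, against 1.44% of all probe sets from -4 to 0 h and 2.65% from 0 to 4 h. At an unadjusted p under 0.05, 6 and 5 members passed, against 14.1% and 10.4% of all probe sets. The largest values from -4 to 0 h were -0.91 (ND-MWFE), -0.54 (SdhD), -0.54 (UQCR-14), -0.84 (COX5A), -0.99 (ATPsynbeta) and 1.66 (ATPsynGL), and from 0 to 4 h -0.55 (ND-39), 0.20 (SdhB), -0.34 (UQCR-6.4), -0.52 (COX7C), -0.62 (ATPsyndelta) and -0.76 (ATPsynGL). The adjusted p lay between 0.345 and 0.42 in the first interval and between 0.364 and 0.926 in the second. The calls of 8 subunit genes as lower at 4 h, and of none as lower at 0 h, were therefore not shown to be a difference between those times. Without both arrays that stood apart, 1 member, Cyt-c1, was called for the interaction from 0 to 4 h (-0.60, limma adjusted p = 0.05). In that fit 782 of all 13966 probe sets were called, 507 of them downward, so this call does not set the members apart.

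Other genes of mitochondrial metabolism were counted in the same way at 4 h, where 9.08% of all probe sets and 14.2% of those above 300 were called lower. Of 6 measured subunit genes with older fly names, ox (complex III, -1.24) and sun (complex V, -0.95) were called lower, blw, the alpha subunit of complex V, passed the adjusted p alone (-0.51, 0.00946), and the median was -0.41. Of 10 genes listed for the tricarboxylic acid cycle and enzymes related to it, mAcon1 (aconitase, -0.68) and Idh (an isocitrate dehydrogenase, -0.59) were called lower, with a median of -0.44. Among 15 carriers and channels 4 were called lower: porin (-1.01), Tom20 (-1.26), Ant2 (-0.90) and Tim13 (-0.65). Of 10 genes listed broadly for complex assembly and copper or haem delivery, Taz (-1.49) and Nubpl (-0.99) were called lower. Of 12 regulators of mitochondrial biogenesis and mitochondrial DNA, TFAM and ewg among them, none was called, and their median was 0.13. No gene of these lists was called higher.

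Tissue markers changed with the same comparison. Of all probe sets 4.33% were called higher and 9.08% lower there, and of those with a mean above 1000, 17.1% and 22.4%. At 4 h 7 of 8 salivary gland genes and 15 of 16 larval midgut genes were called higher in EcRi, with summed intensities of 3041 to 3888 in controls against 57736 to 61398 for the former and 12410 to 14372 against 77737 to 81880 for the latter. Of 13 muscle genes 5 were called higher, with sums of 10601 to 11336 against 13799 to 14728. Of 4 fat body genes 2 were called lower, with sums of 48372 to 50783 against 39036 to 41270. None of 9 nervous system genes was called (1999 to 2193 against 2068 to 2204). One muscle gene (TpnC41C) and 1 nervous system gene (Rdl) were at the floor on all arrays, and the part of these tissues in the values of the subunit genes was not tested. In whole animals fewer cells of a type and less RNA per cell cannot be told apart.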

How the data were processed

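RNA was measured on 18 Affymetrix arrays, 3 for each of 6 groups taken from the sample labels. The arrays were scanned at a core facility, and the authors deposited 1 intensity per probe set, normalized and modelled with dChip1.2; these are the values used. Values under the 20th percentile of all values (91.6) were raised to it, and log2 of the deposited intensity was fitted with limma 3.58.1 in R 4.3.3, with 1 mean per group over all 18 arrays and all 13966 probe sets. Each of 9 comparisons was adjusted by Benjamini-Hochberg. A probe set was called at an adjusted p under 0.1 and 1.5-fold, the limits of the study, which used significance analysis of microarrays (SAM); limma took its place here, and SAM was run as an alternative. The members, lists and tests were chosen with earlier results of these data known. Named in the text are the largest called rise and fall, or the largest change, of each complex and comparison. Also named are the brightest member of each complex, genes with several probe sets, and members in counts of 5 or fewer. The complex I core subunits ND-75, ND-51 and ND-20, with UQCR-14, COX5B and the list genes, were chosen for their roles. Other names were chosen after their values were seen. Symbols came from GEO's platform annotation, which can be old. Levels of different probe sets are not comparable. The p-values and SE rest on the spread between collections of 10 animals, as 1 variance per probe set shared by all 6 groups. They are therefore not the spread of the compared groups alone, and widely spread arrays of 1 group enter every comparison. The fit was tested on simulated data. Deviations of same-numbered arrays from their group means correlated at 0.42, 0.20 and 0.40 between control 0 h and 4 h. In no other comparison were all 3 values over 0.1. The labels do not pair the arrays, and a comparison picked for its correlations cannot show that they are paired. The main fit used no pairing, and a replicate block was an alternative. Alternatives were other floors, a pseudocount of 50, other normalizations, brighter probe sets only, trend and robust fitting, the compared arrays only, a replicate block, other limits, 1 probe set per gene, the dimmer probe set and leaving out arrays; array weights and cyclic loess were added after seeing the data. Figures were drawn with matplotlib.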

Additional observations from a re-analysis of the deposited data

Results flagged for a closer look

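For ND-20, the EcRi arrays lay wholly above the controls at -4 h and wholly below them at 0 h. The differences were 0.24 and -0.49 on the log2 scale, neither called. For ND-B12, an accessory subunit of complex I, they lay wholly above at -4 h (226, 330 and 383 in controls, 446, 406 and 404 in EcRi) and wholly below at 4 h (455, 429 and 408 against 281, 388 and 273), with differences of 0.45 and -0.47. The change from -4 to 0 h between the strains was tested as an interaction and did not pass for either gene (limma adjusted p = 0.345 for each), nor did that from 0 to 4 h (0.977 for ND-20 and 1 for ND-B12). The difference of ND-B12 between -4 and 4 h was not tested as such. At -4 h the lowest control reading of both genes came from control -4 h replicate 1, an array that stood apart; for ND-20 it read 394 beside 540 and 571.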

How the results depend on the processing

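Counts of members called by limma moved by over 1.5 times under these settings. At -4 h (1 as reported) the count was 0 with a 2-fold limit and 3 with array weights, with 0 to 1 over the leave-one-out fits. At 0 h (2) it was 1 with the compared arrays only, a 2-fold limit, without the 2 arrays that stand apart, without 4 arrays (EcRi 4 h replicates 1 and 3 as well) or with array weights, 5 with no fold limit, and 1 to 10 with 1 array left out. At 4 h (10) it was 6 with the compared arrays only or an adjusted p under 0.05, 2 with a 2-fold limit or without 4 arrays, 28 with no fold limit, 19 with array weights and 2 to 24 with 1 array left out. For controls from -4 to 0 h (1) it was 2 with no fold limit or SAM and 1 to 2 leave-one-out; for EcRi from 0 to 4 h (0) it was 1 with brighter probe sets only, 2 with no fold limit, 11 without the 2 arrays, 12 with array weights and 0 to 6 leave-one-out. The interaction from -4 to 0 h (0) gave 1 with a floor at the 40th percentile, without 4 arrays or with array weights, and that from 0 to 4 h (0) gave 1 without the 2 arrays and 9 with array weights; both gave 0 to 1 leave-one-out. Other counts stayed within 1.5 times (285 of 331 over all settings). The calls over all 13966 probe sets moved with the settings too. At 4 h 1873 were called as reported, 2725 with array weights and 3380 with no fold limit. For EcRi from 0 to 4 h 205 were called as reported, 857 without the 2 arrays and 1410 with array weights. The interaction from 0 to 4 h had 370, 782 and 1490 in the same order. Whether the members moved more than other probe sets was not tested. With the replicate block 1, 3 and 10 members were called at -4, 0 and 4 h and no comparison moved by over 1.5 times; where same-numbered arrays deviated together (controls from 0 to 4 h), 0 members were called with and without it. Between EcRi and control at 4 h their deviations correlated at -0.47, -0.16 and 0.30. Of the differences of named genes, 3 changed sign, none of them called. ATPsynGL in EcRi from 0 to 4 h went from -0.71 to 0.10 without the 2 arrays and 0.18 with array weights (-1.14 to 0.10 leave-one-out), and its interaction from 0 to 4 h from -0.76 to 0.0501 and 0.154 (-1.19 to 0.0501). The interaction of SdhB from 0 to 4 h went from 0.20 to -0.00027 without the 2 arrays, -0.019 without 4 and -0.015 with array weights (-0.00027 to 0.35 leave-one-out). Causes beyond the settings' own construction were not tested. With 3 arrays a group the SE of the subunits' differences between EcRi and control ran from 0.05 (SdhC) to 0.35 (COX5A), which limits what could be called.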
